A study of Homo sapiens with 26 samples.

Results

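The genes described are 10 of the 58039 in the count table, all from the semaphorin signalling family. They are the secreted ligands SEMA3A, SEMA3C and SEMA3F, the co-receptors NRP1 and NRP2, and the receptors PLXNA1, PLXNA2, PLXNB1, PLXNB2 and PLXND1. The family was chosen from earlier results of the same data, which had named NRP1 for its low level in CDK8 knockouts and SEMA3A for its high level in CDK19 knockouts. Values of NRP1 in any comparison with CDK8 knockouts, and of SEMA3A in any comparison with CDK19 knockouts, are therefore given as a description, with no p. All 10 genes passed the filter on low counts, as did 26 of the 31 semaphorin, neuropilin and plexin genes in the table.

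The cells were HCT116, an established human line from a colon carcinoma. Unedited HCT116 control cells (control, n = 3) were compared with lines labelled as CRISPR knockouts of CDK8 (CDK8KO), of CDK19 (CDK19KO) and of both genes (DKO). Each knockout came as 2 sublines, C1 and C2, with 3 libraries per subline, and nothing states whether a subline is a single clone or whether its libraries are separate cultures. JQ1, an inhibitor of the BET bromodomain proteins, was given to control cells (control+JQ1, n = 3) and to subline DKO-C1 (DKO-C1+JQ1, n = 2), at a dose and time not given in the sources used here. CDK8 and CDK19 are paralogous kinases of the Mediator complex, and the design asks how losing either or both, with or without BET inhibition, changes RNA levels.

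Semaphorins are guidance cues first known from growing axons. The class 3 members are secreted and bind mainly to neuropilins, which have short intracellular ends and pass the signal through plexins, whose intracellular part acts on small GTPases and so on the cytoskeleton and adhesion. Neuropilins also bind VEGF, and plexins of the B group bind transmembrane class 4 semaphorins. In epithelial tumours these genes have been studied for cell migration, invasion and the growth of vessels.

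Promoter sequences were read for genes whose sublines lay on the same side of control and for one whose sublines did not: SEMA3F and PLXNB1, called higher in every knockout subline, and SEMA3C, whose CDK8KO sublines lay on opposite sides of control. The RefSeq promoter table (build GRCh38.p14) held entries for 8 of the 10 genes, all except NRP1 and SEMA3A. Each window is the 250 bases before a start site, and the first entry of each gene is shown, without bases that lie in an annotated exon (13 bases in SEMA3F, 0 in the others). Capitals mark the GC box GGGCGG on either strand, the only one of 5 motifs searched that these 3 windows hold. SEMA3F lies at chr3:50154808-50155044 on the plus strand, PLXNB1 at chr3:48430087-48430336 on the minus strand and SEMA3C at chr7:80922390-80922639 on the minus strand.
SEMA3F: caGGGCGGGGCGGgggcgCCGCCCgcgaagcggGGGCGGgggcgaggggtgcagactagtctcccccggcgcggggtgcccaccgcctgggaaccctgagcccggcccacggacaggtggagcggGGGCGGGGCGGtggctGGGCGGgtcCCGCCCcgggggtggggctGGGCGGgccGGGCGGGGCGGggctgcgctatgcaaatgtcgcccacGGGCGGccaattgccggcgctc
PLXNB1: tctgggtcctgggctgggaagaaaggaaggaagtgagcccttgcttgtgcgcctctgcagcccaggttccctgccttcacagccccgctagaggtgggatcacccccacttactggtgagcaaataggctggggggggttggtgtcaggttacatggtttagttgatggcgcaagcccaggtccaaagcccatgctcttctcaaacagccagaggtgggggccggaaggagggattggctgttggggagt
SEMA3C: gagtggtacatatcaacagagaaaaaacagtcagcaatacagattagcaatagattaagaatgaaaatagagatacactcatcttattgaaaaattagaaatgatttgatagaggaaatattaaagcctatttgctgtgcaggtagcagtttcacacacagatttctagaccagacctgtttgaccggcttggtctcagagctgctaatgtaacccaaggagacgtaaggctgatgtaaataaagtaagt

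The SEMA3F window had 82.0% G and C, 34 CpG dinucleotides and 12 GC boxes, some of them overlapping. The PLXNB1 window had 59.6% G and C, 4 CpG and 0 GC boxes, and the SEMA3C window had 36.4% G and C, 2 CpG and 0 GC boxes. Over all 35116 promoter windows of that length the median was 58.0% G and C and 11 CpG, and 42.6% held a GC box. The other motifs searched on both strands were the E-box CACGTG, held by 6.34% of all windows, TATAAA, held by 10.7%, the TCF/LEF letters CTTTGAT, held by 2.26%, and the AP-1 letters TGACTCA, held by 4.20%. The matches are letters only, not evidence of binding. All 3 genes have further RefSeq entries, and the counts depend on the entry taken. Bases just after the first start site were found in an annotated transcript of SEMA3F. They were not found for PLXNB1 or SEMA3C, whose annotated genes begin downstream of that site. Bases just after the second start site were found for all 3. The second entry held 5 GC boxes at 79.2% G and C in PLXNB1, 3 at 77.6% in SEMA3C and 2 at 80.4% in SEMA3F. The last entry of SEMA3F held 0 GC boxes at 52.8% G and C, and 1 match to the TCF/LEF letters.

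Libraries held 17700864 to 19093094 gene counts, and levels are given as CPM, counts per 1e+06 counts, on the effective library sizes of the TMM method. The ERCC spike-in took 1.04% to 4.36% of each library, least in control and most in CDK19KO-C1. When libraries were scaled on the spike-in instead, the median over tested genes moved to a log2 fold change of -1.24 in CDK8KO, -1.67 in CDK19KO and -0.92 in DKO, to 1.98 for DKO against the summed single knockouts, and to -0.39 for JQ1 in control. A rise or fall is therefore always given relative to that median. Spike-in RNA is named in the labels of control and DKO samples but not of the single knockouts, so a batch that follows this label and the single knockouts cannot be told apart. CDK8 RNA was 43.6 to 48.3 CPM in CDK8KO and 35.4 to 45.5 in DKO against 50.1 to 54.1 in control cells with or without JQ1. CDK19 RNA was 17.5 to 26.9 CPM in CDK19KO, but 31.8 to 41.3 in DKO against 24.4 to 37.9 in control cells, so gene-level RNA does not check the DKO label, and groups are named as labelled. Epithelial markers fitted the line, with 7 of 8 above 1 CPM in all groups and VIL1 at or near 0. The 6 endothelial and 6 leukocyte markers all stayed below 1 CPM, and of 7 fibroblast markers COL1A1 held 14.6 to 25.97 CPM by group while PDGFRA and LUM were at 0.

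Per kilobase of exon, the receptors ranked far apart. In control cells PLXNB2 was at 46.8 CPM per kilobase, PLXNA1 at 9.62, PLXND1 at 5.32 and PLXNB1 at 4.02, while PLXNA2 was at 0.0596. Among the ligands SEMA3C and SEMA3F were both at 2.69 and SEMA3A at 1.21 CPM per kilobase, and NRP1 at 0.786 exceeded NRP2 at 0.0549. The order of the plexins held in all 9 groups except CDK19KO-C1, where PLXNB1 exceeded PLXND1. The neuropilins did not keep theirs: in CDK8KO-C2, CDK19KO-C1, and with JQ1 in both lines, NRP2 was the more abundant per kilobase, as 0.225 against 0.129 in CDK19KO-C1 shows.

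The members differed widely in how much they varied. The ratio of the highest to the lowest of the 9 group means was 36.7 for NRP1, 22.8 for SEMA3C and 18.3 for SEMA3A, then 6.09 for NRP2, 3.85 for PLXNA2, 3.49 for SEMA3F, 2.86 for PLXNB1, 1.83 for PLXND1, 1.504 for PLXNB2 and 1.49 for PLXNA1. On the log2(CPM + 0.5) scale the median gene spanned 0.82 between its highest and lowest group. Only 1.95% of tested genes spanned more than NRP1, 1.90% more than SEMA3C and 2.20% more than SEMA3A, whereas 71.9% spanned more than PLXNB2 and 73.4% more than PLXNA1. NRP1, SEMA3C and SEMA3A thus moved most across groups, while PLXNB2 and PLXNA1 spanned less than the median gene. Ligands and plexins were not cleanly separated: 13.5% of tested genes spanned more than SEMA3F, 18.6% more than PLXNB1 and 23.8% more than PLXNA2. This is a description, since the spread of NRP1 and SEMA3A led to the choice of the family.

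**Figure D1:**
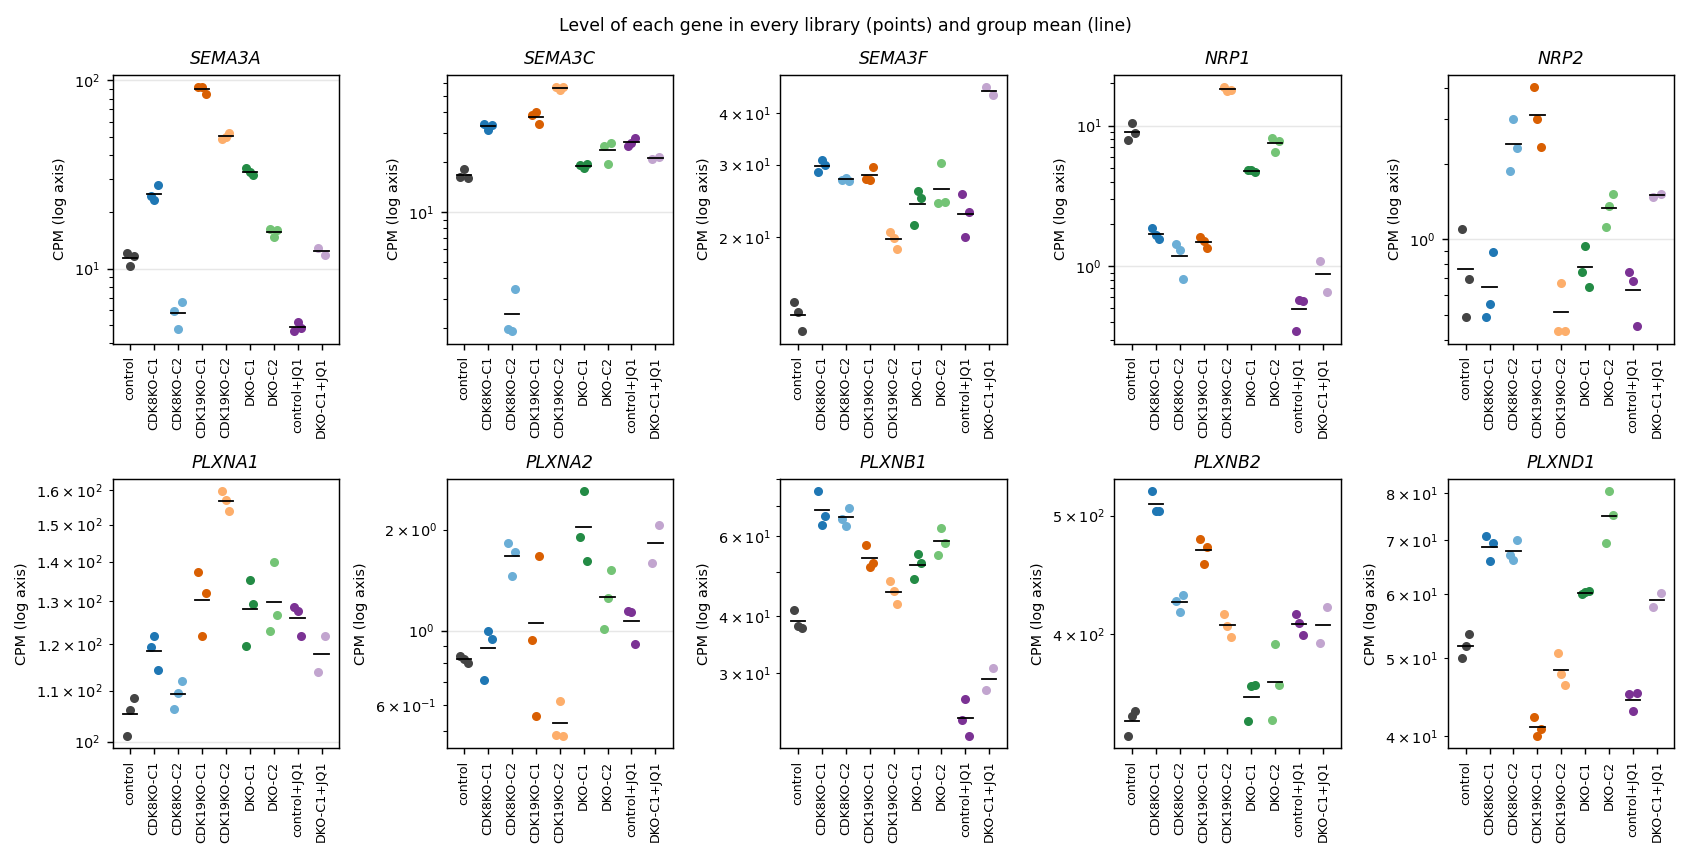
CPM on log axes with a separate range per gene (vertical) for each of the 10 genes in the 9 groups (horizontal), with 1 point per library and a line at the group mean. NRP1 is lowest in control+JQ1, near 0.5 CPM, and highest in CDK19KO-C2, near 18.1 CPM, while all PLXNB2 means lie between 340 and 511 CPM.

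SEMA3A (GENCODE v29 on hg38, chr7:83955777-84492724, minus strand) encodes a secreted ligand that repels axons through NRP1 and A-type plexins. Its libraries held 12.1, 10.3 and 11.7 CPM in control. They held 24.2, 23.0 and 27.9 CPM in CDK8KO-C1 but 5.96, 4.78 and 6.66 in CDK8KO-C2. The CDK8KO sublines therefore lay on either side of control without overlap, and their mean was not called, at a log2 fold change of 0.08 ± 0.08 (SE, edgeR quasi-likelihood test, adjusted p = 0.47). Taken alone, CDK8KO-C1 was higher than control by 1.14 ± 0.09 (adjusted p = 1.8e-13) and CDK8KO-C2 fell by 0.97 ± 0.11 (adjusted p = 4.2e-09) on the log2 scale, a difference between the sublines of 2.11 ± 0.10 (adjusted p = 1.2e-19).

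The highest SEMA3A levels were those of the CDK19 knockouts, at 92.4, 91.7 and 84.5 CPM in CDK19KO-C1 and 48.7, 50.3 and 52.6 in CDK19KO-C2. These are the values that led to the choice of the gene, and the log2 fold change of 2.56 ± 0.07 is a description. DKO libraries held 34.2, 32.4 and 31.5 CPM in C1 and 16.2, 14.6 and 15.9 in C2, all above control and all below every CDK19KO library. SEMA3A was 1.99-fold higher in DKO than in control (log2 fold change 0.99 ± 0.08, edgeR adjusted p = 4.9e-14), and C1 exceeded C2 by 1.07 ± 0.08 (adjusted p = 5.8e-13). The spike-in factors end this call, with 0.09 (adjusted p = 0.54).

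SEMA3C (chr7:80742538-80922359, minus), another secreted class 3 ligand, which binds both neuropilins and PLXND1, held 16.3, 18.1 and 16.0 CPM in control. The CDK8KO sublines again lay on opposite sides: 34.2, 31.4 and 33.5 CPM in C1, and 1.99, 1.92 and 3.44 in C2. Their difference, 3.75 ± 0.13 on the log2 scale or 13.5-fold (edgeR adjusted p = 2.0e-23), was the largest between sublines for any of the 10 genes. The mean of the sublines, -0.90 ± 0.10 (adjusted p = 4.7e-09), describes neither, since C1 was higher than control by 0.97 ± 0.09 (adjusted p = 5.0e-11) and C2 fell by 2.78 ± 0.14 (adjusted p = 3.4e-18).

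In CDK19KO, SEMA3C was at 38.6, 39.9 and 33.8 CPM in C1 and 56.8, 54.3 and 56.8 in C2, all above control. The rise was 1.44 ± 0.08 on the log2 scale, or 2.72-fold (edgeR adjusted p = 2.6e-17). DKO libraries held 19.3, 18.5 and 19.5 CPM in C1 and 25.01, 19.4 and 26.2 in C2, and none of them overlapped the control libraries. The DKO rise of 0.33 ± 0.08 (adjusted p = 6.6e-04) was smaller, and in DKO-C1 alone, at 0.18 ± 0.10, it did not pass (adjusted p = 0.11). With spike-in factors SEMA3C turned negative in both, at -0.21 in CDK19KO and -0.58 in DKO.

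SEMA3F (chr3:50155045-50189075, plus) encodes a secreted ligand that acts mainly through NRP2. It was the most even of the ligands: control libraries held 13.95, 13.15 and 11.8 CPM, and no knockout library was below 18.7. CDK8KO libraries held 28.7, 30.8 and 29.9 CPM in C1 and 27.5, 27.8 and 27.4 in C2, and CDK19KO libraries 27.7, 27.5 and 29.6 in C1 and 20.6, 19.9 and 18.7 in C2. DKO libraries held 21.4, 25.9 and 24.9 CPM in C1 and 24.2, 30.2 and 24.3 in C2.

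SEMA3F rose in CDK8KO by 1.14 ± 0.08 on the log2 scale (edgeR adjusted p = 2.1e-14), in CDK19KO by 0.86 ± 0.08 (adjusted p = 4.9e-11) and in DKO by 0.95 ± 0.08 (adjusted p = 4.7e-13). The DKO value was below the sum of the single knockouts by 1.05 ± 0.10 (adjusted p = 1.3e-11). Each of the 6 sublines was called higher, with log2 fold changes from 0.60 to 1.20, and this was so for 386 of 17198 tested genes (2.24%). On the spike-in scale the median gene fell, and SEMA3F was at -0.08 in CDK8KO, -0.79 in CDK19KO and 0.06 in DKO. Some SEMA3F exon sequence (110 bases) overlaps the antisense gene SEMA3F-AS1, and the strand setting of the counting is not given in the sources used here, so reads there cannot be assigned to one gene.

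**Figure D2:**
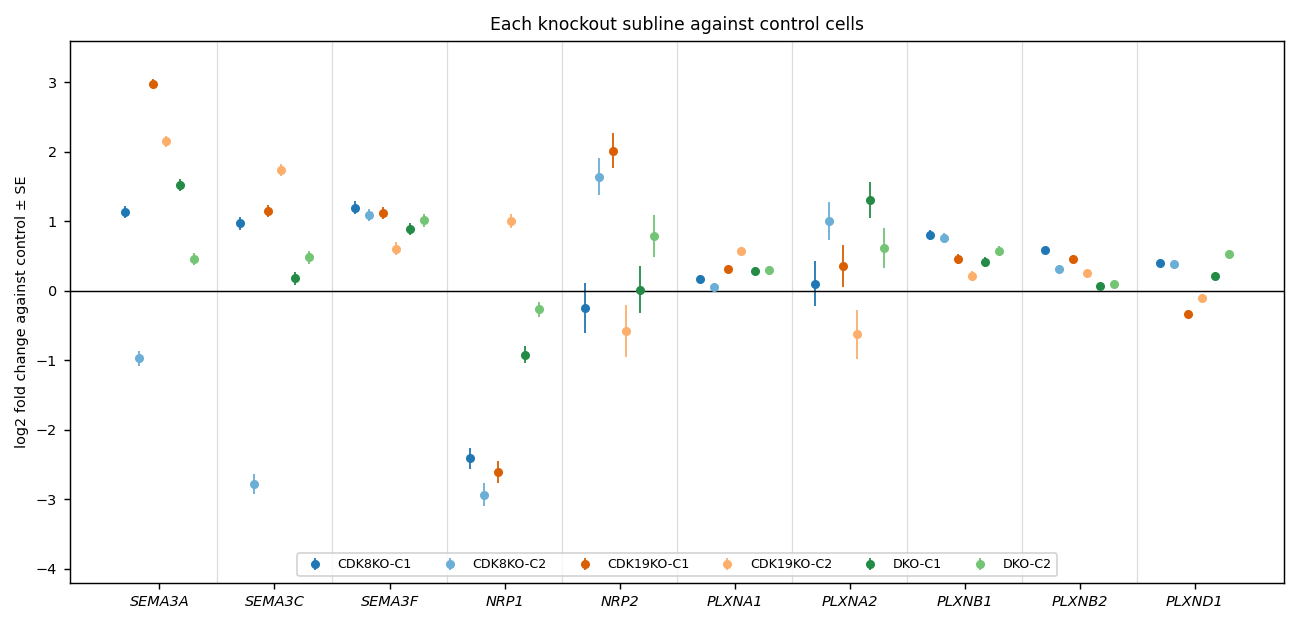
Log2 fold change against control (vertical, point ± SE from the edgeR fit) of each gene in each of the 6 knockout sublines (colours, 3 libraries each). SEMA3A and SEMA3C lie above 0 in CDK8KO-C1 and below it in CDK8KO-C2, NRP1 lies above 0 only in CDK19KO-C2, and SEMA3F lies above 0 in all 6 sublines, positions that hold relative to the median gene.

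NRP1 (chr10:33177492-33336262, minus) is the neuropilin that binds SEMA3A and VEGF. Its control libraries held 7.92, 10.4 and 8.88 CPM. The CDK8KO libraries held 1.86, 1.66 and 1.56 CPM in C1 and 1.44, 1.30 and 0.806 in C2, the low values that led to the choice of the gene, at a log2 fold change of -2.67 ± 0.13. The CDK19KO sublines split: 1.6, 1.5 and 1.34 CPM in C1, as low as in CDK8KO, but 18.9, 17.6 and 17.9 in C2, above every control library.

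NRP1 in CDK19KO-C1 fell by 2.60 ± 0.16 on the log2 scale (edgeR adjusted p = 2.4e-16) and in CDK19KO-C2 rose by 1.003 ± 0.10 (adjusted p = 1.6e-10). The sublines differed by 3.61 ± 0.14, with C1 lower (adjusted p = 2.9e-22), and their mean of -0.80 ± 0.11 (adjusted p = 3.9e-07) lies at the level of neither. In DKO, where both genes are labelled as lost, NRP1 was at 4.82, 4.85 and 4.67 CPM in C1 and 8.21, 6.53 and 7.79 in C2, and C2 overlapped control. DKO was lower than control by 0.59 ± 0.10 (adjusted p = 2.9e-06), while all its libraries were above every CDK8KO library. The sum of the single-knockout effects would be lower than the DKO value by 2.88 ± 0.17 on the log2 scale, given as a description. A stretch of 561 exon bases of NRP1 overlaps AL121748.2 on the other strand, so reads there cannot be assigned.

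NRP2 (chr2:205681990-205798133, plus), the neuropilin that binds SEMA3F and VEGF-C, was scarce, and its values rest on few reads. Control libraries held 1.10, 0.493 and 0.695 CPM, or 9 to 21 counts. CDK8KO libraries held 0.493, 0.554 and 0.889 CPM in C1 and 1.88, 3.01 and 2.31 in C2. CDK19KO libraries held 4.04, 3.01 and 2.34 CPM in C1 and 0.434, 0.674 and 0.432 in C2. In each single knockout 1 subline was above control with no overlap and the other overlapped control.

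NRP2 was higher than control in CDK8KO-C2 by 1.64 ± 0.27 on the log2 scale (edgeR adjusted p = 7.0e-06) and in CDK19KO-C1 by 2.02 ± 0.26 (adjusted p = 3.7e-08). It was not called in CDK8KO-C1 at -0.25 ± 0.36 (adjusted p = 0.62) or in CDK19KO-C2 at -0.58 ± 0.38 (adjusted p = 0.23). The differences between sublines were called in both genotypes, at -1.89 ± 0.28 for CDK8KO (adjusted p = 2.5e-06) and 2.60 ± 0.28 for CDK19KO (adjusted p = 8.4e-10). The genotype means, 0.70 ± 0.28 (adjusted p = 0.045) and 0.72 ± 0.29 (adjusted p = 0.042), are fragile: without control replicate 2 they were 0.47 (adjusted p = 0.25) and 0.49 (adjusted p = 0.22). Leaving out control replicate 3, CDK8KO-C1 replicate 3, or CDK8KO-C2 replicate 2 or 3 also ended the CDK8KO call, and leaving out control replicate 3, CDK19KO-C1 replicate 1 or CDK19KO-C2 replicate 2 the CDK19KO call. In DKO, NRP2 was at 0.741, 0.939 and 0.645 CPM in C1 and 1.12, 1.36 and 1.52 in C2, and the mean of 0.40 ± 0.28 was not called (adjusted p = 0.22). Another 147 exon bases of NRP2 overlap AC007362.1 on the opposite strand.

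CDK19KO-C1 thus combined a lower NRP1 with a higher NRP2, while CDK19KO-C2 had a higher NRP1 and an NRP2 that overlapped control. In both CDK8KO sublines NRP1 libraries lay below control, and NRP2 was higher in C2 and overlapped control in C1. Sublines of a genotype shared the direction of NRP1 only in CDK8KO and DKO. Across all tested genes, 25.8% were called higher in at least 1 of the 6 sublines and lower in at least 1 other, and SEMA3A, SEMA3C, NRP1 and PLXND1 are among them.

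PLXNB2 (chr22:50274979-50307627, minus), a receptor for class 4 semaphorins and the most abundant plexin, held 330, 343 and 346 CPM in control. Its CDK8KO libraries ranged from 417 to 524 CPM and its CDK19KO libraries from 398 to 479, all above control. PLXNB2 rose by 0.46 ± 0.04 in CDK8KO (edgeR adjusted p = 1.3e-11) and by 0.36 ± 0.04 in CDK19KO (adjusted p = 2.7e-09). DKO libraries, at 339 to 393 CPM, overlapped control, and the mean of 0.09 ± 0.04 did not pass (adjusted p = 0.062). The DKO value was below the sum of the single knockouts by 0.73 ± 0.05 (adjusted p = 4.7e-15).

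PLXNB1 (chr3:48403854-48430051, minus), the receptor of SEMA4D, which couples to RhoA through PDZ-RhoGEF and LARG, held 41.3, 38.1 and 37.8 CPM in control. Every knockout library was higher, from 63.2 to 75.4 CPM in CDK8KO, 42.6 to 57.5 in CDK19KO and 48.2 to 62.7 in DKO. The rise was 0.78 ± 0.06 in CDK8KO (edgeR adjusted p = 1.1e-12), 0.34 ± 0.06 in CDK19KO (adjusted p = 4.3e-05) and 0.50 ± 0.06 in DKO (adjusted p = 1.3e-08). With SEMA3F it was the only one of the 10 genes called higher in all 6 sublines, at 0.21 to 0.81. Spike-in factors turned it below control, to -0.44, -1.31 and -0.40.

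PLXND1 (chr3:129555175-129606818, minus), which binds SEMA3E directly and SEMA3C with neuropilins, moved in opposite directions in the single knockouts. Control libraries held 50.0, 51.7 and 53.6 CPM, CDK8KO libraries 65.8 to 70.8 and CDK19KO libraries 40.1 to 50.7. PLXND1 rose by 0.40 ± 0.05 in CDK8KO (edgeR adjusted p = 1.2e-08) and fell by 0.22 ± 0.05 in CDK19KO (adjusted p = 3.4e-04), where C2 alone did not pass at -0.10 ± 0.06 (adjusted p = 0.14). DKO was higher by 0.38 ± 0.05 (adjusted p = 9.1e-09), with 60.0 to 60.4 CPM in C1 and 69.4 to 80.5 in C2. CDK8KO exceeded CDK19KO by 0.62 ± 0.04 (adjusted p = 5.6e-16), with no overlap of libraries.

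PLXNA1 (chr3:126988594-127037392, plus), a signalling partner of neuropilins for class 3 semaphorins, held 101, 106 and 109 CPM in control. CDK19KO was higher at 122 to 160 CPM, by 0.44 ± 0.05 (edgeR adjusted p = 1.1e-09), and DKO at 120 to 140 CPM, by 0.29 ± 0.05 (adjusted p = 1.2e-06). CDK8KO, at 106 to 122 CPM, overlapped control and missed the threshold at 0.11 ± 0.05 (adjusted p = 0.053). PLXNA2 (chr1:208022242-208244320, minus), its close relative, stayed between 0.486 and 2.61 CPM in all libraries. It was higher in DKO by 0.96 ± 0.25 (adjusted p = 8.9e-04), of which DKO-C1 gave 1.31 ± 0.26 (adjusted p = 5.6e-05) and DKO-C2 0.62 ± 0.29, not called (adjusted p = 0.069).

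Counted together, 7 of the 10 genes were called in CDK8KO against control (5 higher, 2 lower), where 40.5% of all tested genes were called, 19.5% higher and 21.0% lower. In CDK19KO 9 were called (7 higher, 2 lower) beside 43.0% of all genes, 21.0% higher and 22.0% lower. Nothing is read from these counts, since both contrasts served to choose the family. In DKO 8 were called (7 higher, 1 lower) beside 61.6% of all genes, 29.5% higher and 32.1% lower. With spike-in factors these splits became 0 higher and 8 lower, 1 higher and 8 lower, and 0 higher and 6 lower. The median log2 fold change of the 10 genes was 0.43 in CDK8KO, 0.40 in CDK19KO and 0.39 in DKO, against -0.02 over all tested genes in each. Nothing is read from the CDK8KO and CDK19KO medians either, for the same reason, and the DKO median is of genes chosen with earlier results known.

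For CDK8KO against CDK19KO, 9 of the 10 genes were called (5 higher, 4 lower), where 47.1% of all genes were (23.6% higher, 23.4% lower). The count includes NRP1 and SEMA3A, whose levels here led to the choice of the family, so nothing is read from it. SEMA3C was lower in CDK8KO by 2.35 ± 0.08 on the log2 scale (edgeR adjusted p = 6.8e-25), although CDK8KO-C1 overlapped the CDK19KO libraries. PLXNB1 was higher by 0.45 ± 0.05 (adjusted p = 1.3e-09), and NRP2 was not called at -0.02 ± 0.24 (adjusted p = 0.95). The values of NRP1 and SEMA3A, -1.87 ± 0.15 and -2.48 ± 0.06, are descriptions.

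DKO differed from the sum of both single knockouts for 8 of the 10 genes (2 higher, 6 lower), beside 59.2% of all genes (29.3% higher, 29.8% lower). Nothing is read from this count either, since it includes NRP1 and SEMA3A. The genes lower than the sum were SEMA3A, SEMA3F, NRP2, PLXNA1, PLXNB1 and PLXNB2, and those higher were NRP1 and PLXND1. The values of NRP1, 2.88 ± 0.17, and SEMA3A, -1.66 ± 0.10, are descriptions, since they hold the levels that led to the choice of the family. With spike-in factors 9 were called and all were higher, so this direction depends on the scaling. Apart from SEMA3F and PLXNB2, already given, PLXNB1 lay below the sum by 0.62 ± 0.08 (edgeR adjusted p = 1.8e-08) and NRP2 by 1.01 ± 0.36 (adjusted p = 0.016), which was not called without control replicate 2 (adjusted p = 0.075) or CDK8KO-C1 replicate 3 (adjusted p = 0.051). PLXND1 lay above it by 0.20 ± 0.06 (adjusted p = 0.0057), a call lost with DKO-C1 in place of both DKO sublines, at 0.04 (adjusted p = 0.65). Each sum adds subline means, and some sublines lay on opposite sides of control. NRP2 was at -0.25 in CDK8KO-C1, 1.64 in CDK8KO-C2, 2.02 in CDK19KO-C1 and -0.58 in CDK19KO-C2. NRP1 split likewise in CDK19KO and SEMA3A in CDK8KO. Sums of single sublines were not tested, so size and sign for these genes may depend on the subline.

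Sublines of the same genotype differed for 5 of the 10 genes in CDK8KO, beside 21.1% of all genes, for all 10 in CDK19KO, beside 48.0% and with SEMA3A given as a description, and for 4 in DKO, beside 9.42%. In DKO these were SEMA3A, NRP1, SEMA3C and PLXND1, and of them NRP1 was lower in C1 by 0.65 ± 0.13 (edgeR adjusted p = 3.3e-04) and PLXND1 by 0.32 ± 0.05 (adjusted p = 4.4e-05). The SEMA3C difference of -0.30 ± 0.09 (adjusted p = 0.029) was lost without any of the DKO-C1 libraries or without DKO-C2 replicate a or c, with adjusted p up to 0.19. Against control, 39.2% of all tested genes were called in CDK8KO-C1, 34.0% in CDK8KO-C2, 46.1% in CDK19KO-C1, 42.4% in CDK19KO-C2, 55.9% in DKO-C1 and 58.9% in DKO-C2. Columns of DKO-C2 carry a clone number that is in no sample label, and they were matched to that subline by elimination. All p values measure the spread between libraries of a subline, not between independent knockouts.

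JQ1 lowered NRP1 most among the 10 genes. Control+JQ1 libraries held 0.344, 0.569 and 0.568 CPM, or 6, 10 and 10 counts, against 7.92 to 10.4 CPM without JQ1. NRP1 fell by 4.18 ± 0.20 on the log2 scale, to 5.53% of the untreated level (edgeR adjusted p = 1.4e-19). In DKO-C1, JQ1 libraries held 1.10 and 0.651 CPM against 4.67 to 4.85 without it, a fall of 2.45 ± 0.23 to 18.4% (adjusted p = 1.5e-11). The fall was smaller in DKO-C1 by 1.73 ± 0.39 (adjusted p = 0.0026), but without DKO-C1+JQ1 replicate 1 this difference was 1.30 and did not pass (adjusted p = 0.17).

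SEMA3A fell with JQ1 in both lines. It held 4.64, 5.18 and 4.83 CPM in control+JQ1 and 12.9 and 11.8 in DKO-C1+JQ1, each below the untreated libraries of its line. The falls were 1.22 ± 0.11 (edgeR adjusted p = 1.5e-11) and 1.41 ± 0.09 (adjusted p = 2.3e-15), to 43.0% and 37.7% of the untreated level, and they did not differ detectably (-0.19 ± 0.15, adjusted p = 0.55). PLXNB1 fell likewise, from 37.8 to 41.3 down to 21.9 to 26.3 CPM in control and from 48.2 to 55.0 down to 27.5 and 30.7 CPM in DKO-C1. These falls were 0.71 ± 0.08 (adjusted p = 1.1e-09) and 0.83 ± 0.08 (adjusted p = 1.5e-10).

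SEMA3F rose with JQ1 in both lines, opposite to SEMA3A. It held 25.4, 19.98 and 23.1 CPM in control+JQ1 and 46.3 and 44.1 in DKO-C1+JQ1, its highest level of all groups. The rises were 0.81 ± 0.09 (edgeR adjusted p = 1.5e-09) and 0.91 ± 0.09 (adjusted p = 2.5e-11), with a difference of 0.10 ± 0.13 that did not pass (adjusted p = 0.75). With spike-in factors they were smaller, 0.44 (adjusted p = 0.016) and 0.64 (adjusted p = 0.0011). PLXNB2 rose slightly, by 0.26 ± 0.05 (adjusted p = 6.4e-06) and 0.20 ± 0.05 (adjusted p = 0.0013), and these turned to -0.10 and -0.08 with the spike-in.

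SEMA3C responded differently in the 2 lines. It held 25.1, 26.2 and 27.8 CPM in control+JQ1, above control with no overlap, and rose by 0.65 ± 0.09 (edgeR adjusted p = 2.4e-07). In DKO-C1+JQ1 it held 20.8 and 21.5 CPM and was not called at 0.15 ± 0.10 (adjusted p = 0.25). The difference of -0.50 ± 0.14 passed (adjusted p = 0.018), though it missed the threshold without control replicate 3, control+JQ1 replicate 3 or DKO-C1+JQ1 replicate 1, with adjusted p of 0.052, 0.050 and 0.083. PLXNA1 differed too, at 0.26 ± 0.05 in control (adjusted p = 8.8e-05) and -0.12 ± 0.06 in DKO-C1 (adjusted p = 0.094), a difference of -0.38 ± 0.08 (adjusted p = 0.0013). With spike-in factors neither the SEMA3C nor the PLXNA1 difference was called.

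NRP2 held 0.744, 0.683 and 0.455 CPM in control+JQ1 and overlapped control, at -0.29 ± 0.36 (edgeR adjusted p = 0.52). In DKO-C1+JQ1 it held 1.48 and 1.52 CPM and rose by 0.94 ± 0.33 (adjusted p = 0.015), a call lost without either JQ1 library, with adjusted p of 0.056 and 0.068, or without DKO-C1 replicate 3, with 0.054. The difference between the lines, 1.23 ± 0.49, did not pass (adjusted p = 0.12). PLXND1 fell by 0.22 ± 0.06 in control (adjusted p = 9.5e-04) and was at -0.03 ± 0.06 in DKO-C1 (adjusted p = 0.72). PLXNA2 was called in neither line.

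In all, JQ1 in control called 8 of the 10 genes (4 higher, 4 lower), where 56.0% of all genes were called (27.0% higher, 29.1% lower). In DKO-C1 it called 6 (3 higher, 3 lower), beside 50.3% (24.9% higher, 25.4% lower). The JQ1 responses differed between the lines for 3 genes (1 higher, 2 lower), beside 8.59% of all genes (3.90% higher, 4.70% lower). With spike-in factors the splits were 1 higher and 4 lower in control, 1 higher and 3 lower in DKO-C1, and 1 higher and 0 lower for the difference. The summed level of the 6 neural markers rose with JQ1. It was 44.1 to 48.3 CPM in control+JQ1 against 8.02 to 9.81 in control, and 55.4 to 57.6 against 10.2 to 11.9 in DKO-C1. MAP2 made up most of this, with group means up to 51.4 CPM, while no group mean of the other neural markers exceeded 3.95 CPM. In each group 2 to 3 of the 6 markers exceeded 1 CPM, and OLIG2 stayed at or near 0. Their part in the JQ1 results was not tested.

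**Figure D3:**
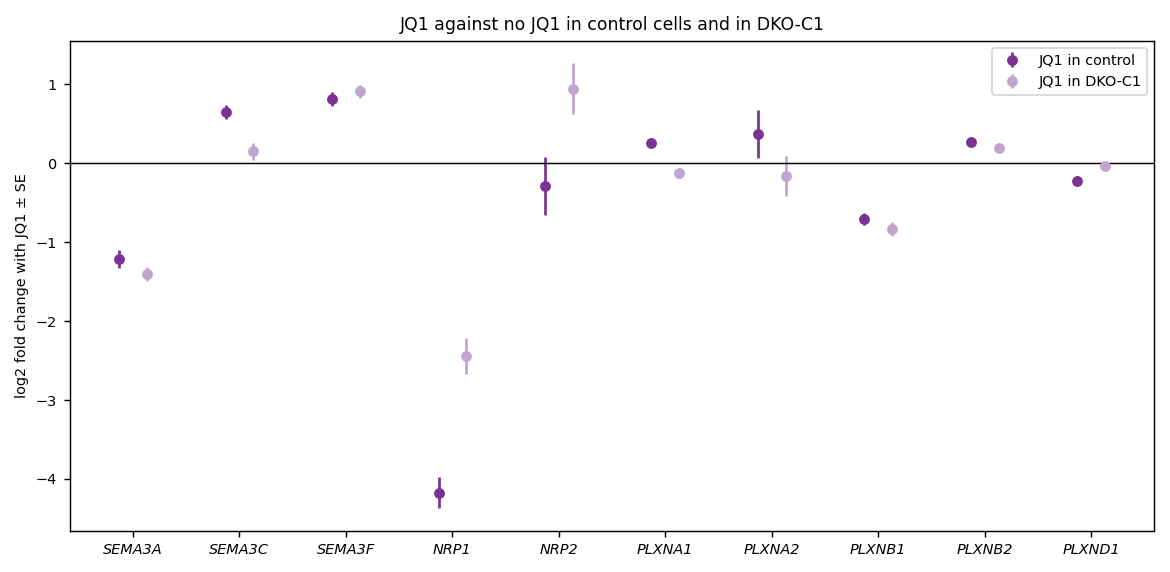
Log2 fold change with JQ1 (vertical, point ± SE from the edgeR fit) for each gene in control cells (dark, 3 against 3 libraries) and in DKO-C1 (light, 2 against 3 libraries). NRP1 is lowest in both, at -4.18 and -2.45, SEMA3A and PLXNB1 lie below 0 and SEMA3F above 0 in both lines, relative to the median gene.

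The wider family gave 26 testable genes, chosen like the members with earlier results known. Of these, 16 were called in CDK8KO (13 higher, 3 lower), 13 in CDK19KO (11 higher, 2 lower) and 18 in DKO (16 higher, 2 lower). Over all tested genes 40.5% were called in CDK8KO (19.5% higher, 21.0% lower), 43.0% in CDK19KO (21.0% higher, 22.0% lower) and 61.6% in DKO (29.5% higher, 32.1% lower). JQ1 called 21 in control (10 higher, 11 lower), beside 56.0% of all genes (27.0% higher, 29.1% lower). In DKO-C1 it called 20 (10 higher, 10 lower), beside 50.3% (24.9% higher, 25.4% lower). These counts include the 10 members. Without the members 16 genes were tested, and 9 were called in CDK8KO, 4 in CDK19KO and 10 in DKO. Of the same 16, JQ1 called 13 in control and 14 in DKO-C1. With spike-in factors, a comparison added after the data were seen, the family split into 0 higher and 24 lower in CDK8KO, 1 and 24 in CDK19KO, 0 and 19 in DKO, 4 and 11 with JQ1 in control and 3 and 10 in DKO-C1. The median log2 fold change of the 26 genes was 0.27, 0.17 and 0.31 in the knockouts and 0.04 and -0.09 with JQ1. Without the members it was 0.19, 0.05 and 0.195 in the knockouts and 0.04 and -0.13 with JQ1. Over all genes it was -0.02, -0.02, -0.02, -0.02 and 0.00. SEMA4A, SEMA5A, SEMA5B, SEMA6D and PLXNA4 did not pass the filter and stayed at or below 0.16 CPM in every group.

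Among the other class 3 ligands, SEMA3B, a secreted semaphorin encoded near SEMA3F on chromosome 3, was higher in CDK8KO by 0.63 ± 0.08 (edgeR adjusted p = 1.5e-08) and in DKO by 1.04 ± 0.07 (adjusted p = 3.5e-15). In CDK19KO the SEMA3B libraries lay on opposite sides of control without overlap, at 7.86 to 9.41 CPM in C1 and 13.4 to 15.5 in C2. JQ1 lowered it from 12.04 to 12.4 CPM down to 2.5 to 2.98 CPM in control, by 2.17 ± 0.12 on the log2 scale (adjusted p = 2.8e-17). In DKO-C1 it went from 20.5 to 24.2 CPM down to 5.64 and 6.72, by 1.85 ± 0.11 (adjusted p = 8.6e-17). SEMA3B thus fell with JQ1 where SEMA3F rose.

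SEMA3E, the ligand that binds PLXND1 without a neuropilin, was scarce, at 21 to 25 counts in control libraries. It had 1 to 7 counts in CDK8KO libraries and 0 to 14 in DKO, and was lower by 3.03 ± 0.39 (edgeR adjusted p = 8.2e-08) and 2.10 ± 0.35 (adjusted p = 1.9e-06). SEMA3D, another scarce class 3 ligand, had 0 to 4 counts in control+JQ1 against 16 to 29 in control, a fall of 3.25 ± 0.50 (adjusted p = 9.6e-07). All 7 class 3 genes were tested, and in CDK8KO 3 were higher and 2 lower, in CDK19KO 4 higher and 0 lower, and in DKO 5 higher and 1 lower. Over all genes 19.5% were higher and 21.0% lower in CDK8KO, 21.0% and 22.0% in CDK19KO, and 29.5% and 32.1% in DKO. With spike-in factors the class had 0 higher and 6 lower, 1 and 5, and 0 and 4.

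Of 9 testable genes of classes 4 to 7, which are membrane-bound, 6 were higher and 0 lower in CDK8KO, 3 and 0 in CDK19KO and 6 and 0 in DKO, beside 19.5%, 21.0% and 29.5% of all genes higher. With spike-in factors 0 were higher in each, and 9, 9 and 7 were lower. SEMA4C, a ligand of PLXNB2, was higher in CDK8KO by 0.60 ± 0.07 (edgeR adjusted p = 1.9e-09), and SEMA4D, the ligand of PLXNB1, by 0.40 ± 0.05 (adjusted p = 7.3e-08). SEMA7A, a GPI-anchored semaphorin, was higher in DKO by 0.89 ± 0.08 (adjusted p = 6.6e-13). With JQ1, SEMA6A rose by 1.37 ± 0.10 in control (adjusted p = 1.1e-14) and 1.53 ± 0.10 in DKO-C1 (adjusted p = 2.5e-15), while SEMA6B fell by 1.02 ± 0.08 (adjusted p = 1.0e-13) and 0.77 ± 0.08 (adjusted p = 3.5e-10). Of the other plexins, PLXNA3 rose by 0.86 ± 0.08 (adjusted p = 6.9e-12) and PLXNB3 fell by 1.58 ± 0.24 (adjusted p = 4.2e-07) in control. PLXNB3 shares 1432 exon bases with SRPK3 on the same strand, so its counts are uncertain.

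**Figure D4:**
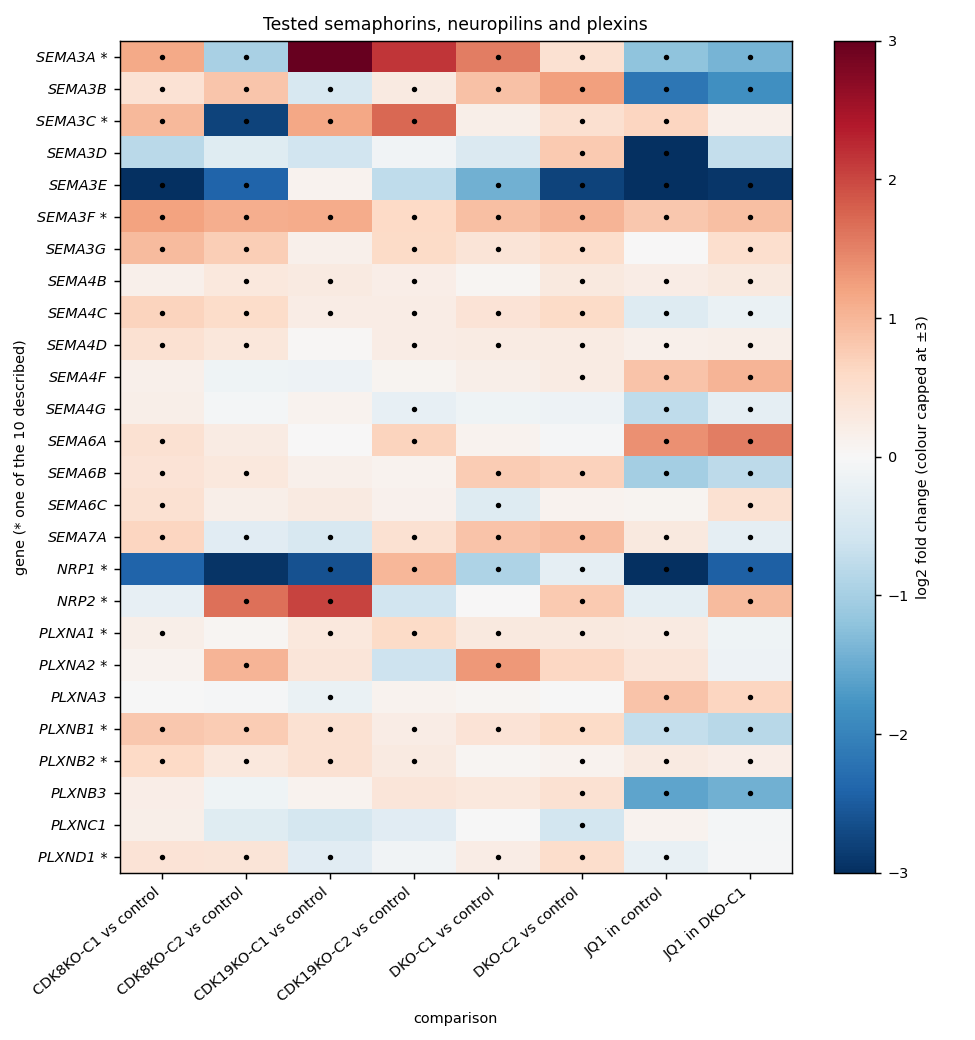
Log2 fold change (colour, capped at ±3) of the 26 tested semaphorin, neuropilin and plexin genes (vertical) in each subline against control and with JQ1 (horizontal). A dot marks an adjusted p under 0.05 in the edgeR test, with no dot where no p is given for NRP1 in CDK8KO and SEMA3A in CDK19KO, and an asterisk marks the 10 genes described. SEMA3F and PLXNB1 are red with a dot in all 6 sublines, relative to the median gene.

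A list of 20 ligands and receptors shared with neuropilins and plexins had 13 tested genes. In CDK8KO 6 were higher and 1 lower, in CDK19KO 3 and 3, in DKO 9 and 1, and with JQ1 in control 7 and 2. Over all genes 19.5% were higher and 21.0% lower in CDK8KO, 21.0% and 22.0% in CDK19KO, 29.5% and 32.1% in DKO, and 27.0% and 29.1% with JQ1 in control. With spike-in factors the list had 0 and 11, 0 and 13, 1 and 7, and 2 and 4. PGF, a VEGF-family ligand of neuropilins, rose in CDK8KO by 1.32 ± 0.13 (edgeR adjusted p = 8.1e-11), in CDK19KO by 1.21 ± 0.13 (adjusted p = 6.6e-10) and in DKO by 1.15 ± 0.13 (adjusted p = 5.5e-10), from 3.80 CPM in control to 9.49, 8.89 and 8.48. VEGFA, the main VEGF that binds NRP1, fell in CDK8KO by 0.31 ± 0.05 (adjusted p = 6.0e-06) and in CDK19KO by 0.61 ± 0.05 (adjusted p = 3.2e-12), and with JQ1 in control by 0.44 ± 0.06 (adjusted p = 8.9e-08). L1CAM, an adhesion protein that associates with NRP1, rose in CDK8KO by 1.09 ± 0.07 (adjusted p = 4.7e-15), in DKO by 1.77 ± 0.07 (adjusted p = 3.6e-23) and with JQ1 in control by 1.73 ± 0.08 (adjusted p = 1.9e-20). In CDK19KO, L1CAM split like NRP1, at -0.82 in C1 and 1.08 in C2, both called. The other calls chosen for size were, in CDK19KO, MST1R, a receptor kinase that pairs with B-type plexins, at -0.31 and ERBB2 at 0.24, in DKO MET, a receptor kinase that does the same, at -0.21, and with JQ1 in control VEGFB at -0.86 and the integrin gene ITGA1 at 0.98.

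Of 34 intracellular effectors 33 were tested. In CDK8KO 16 were higher and 4 lower, in CDK19KO 13 and 4, in DKO 22 and 6, and with JQ1 in control 21 and 5. Beside these, 19.5% of all genes were higher and 21.0% lower in CDK8KO, 21.0% and 22.0% in CDK19KO, 29.5% and 32.1% in DKO, and 27.0% and 29.1% with JQ1 in control. With spike-in factors the effectors had 0 and 31, 0 and 33, 2 and 26, and 4 and 8. The CRMP proteins, which carry the SEMA3A signal to microtubules, did not move together: DPYSL2 rose in DKO by 1.29 ± 0.05 (edgeR adjusted p = 4.9e-24), while DPYSL3 fell by 1.97 ± 0.05 (adjusted p = 1.2e-29), from 59.4 to 15.3 CPM. MICAL2, a relative of the plexin-binding oxidase MICAL1 that acts on actin, rose in DKO by 1.42 ± 0.06 (adjusted p = 1.8e-22), and MICAL1 rose with JQ1 in control by 1.05 ± 0.08 (adjusted p = 3.7e-13). SH3BP1, a Rac GTPase-activating protein that binds PLXND1, fell in DKO by 2.18 ± 0.09 (adjusted p = 1.3e-22), from 29.7 to 6.59 CPM, and shares 1745 exon bases with Z83844.3 on the same strand, so its counts are uncertain. TIAM1, a Rac exchange factor, fell in CDK19KO by 0.51 ± 0.05 (adjusted p = 9.5e-10), and its sublines were at -1.14 in C1 and 0.12 in C2. The other calls chosen for size were DPYSL4 at 1.14, DPYSL2 at 0.93, FES at -0.35 and FYN at -0.30 in CDK8KO, and RND1 at 0.73 (not called in C2), CFL1 at 0.33 and ARHGEF12 at -0.32 (not called in C2) in CDK19KO. With JQ1 in control they were DPYSL3 at 0.93, PAK1 at -0.37 and LIMK2 at -0.36.

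Genes with the most similar pattern over the 9 group means were found by Pearson's r on the log2(CPM + 0.5) scale, as a description without p, over protein-coding genes with at least 5 CPM in a group. For NRP1 these were NHSL1 (r = 0.951), IFT46 (0.948) and WDFY1 (0.935), and for SEMA3A they were HOXB13 (0.927), DPF1 (0.923) and PRKACB (0.912). For SEMA3C they were SNX17 (0.909), TNIK (0.906) and PPT1 (0.897), and for NRP2 SLC35A2 (0.914), DDOST (0.913) and SIM2 (0.885). None of them is another of the 10 genes, but NRP2 and PLXNA2 stayed below 5 CPM in every group and so were not candidates. Each r rests on 9 points and was among the highest of about 10930 candidates.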

How the data were processed

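RNA-seq of 26 libraries in 9 groups was used as the raw gene counts the authors deposited, for 58039 genes on hg38. Reads were aligned with STAR 2.5.2 and counted with featureCounts from Subread 1.6.3, per the submitters' processing notes; neither the strand setting nor the annotation release is stated there. Column names matched 22 libraries to their labels. By elimination, 3 DKO columns, whose clone number is in no label, went to DKO-C2, and 1 DKO-C1+JQ1 column to a replicate without a number. Genes passing edgeR's filter (minimum count 10, minimum total 15) numbered 17198. All 26 libraries entered one quasi-likelihood fit in edgeR 4.0.16 (R 4.3.3) with TMM scaling, 1 mean per group, two-sided tests and Benjamini-Hochberg adjustment over the 17198 genes. A gene was called at an adjusted p under 0.05, and SE is the size of the log2 fold change over the root of F. Genotype values are the mean of both sublines. The fit was also run on simulated data with the same change in both CDK8KO sublines, which holds no differences between sublines and so cannot test them. Alternatives were DESeq2 1.42.0 and its size factors, no filter, spike-in factors, a replicate block, the compared libraries alone, 1 subline in place of both, and fits without each library in turn.

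Members and lists were chosen with earlier results of these data known. The text names the 10 members, genes of the family, and from each other list the 2 largest rises and falls among called genes with at least 1 CPM, or fewer where fewer were called. The spike-in splits of the lists, and DKO-C1 alone against the summed single knockouts, were added after the data were examined. The labels do not say that libraries are separate cultures, so p-values measure only the spread between libraries, which may be technical; replicate pairs differed by more than counting noise (chi-square per degree of freedom 1.41 to 13.16 over 25 pairs). Depth was 17700864 to 19093094 gene counts per library, so NRP2 and PLXNA2 rest on few reads.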

Additional observations from a re-analysis of the deposited data

Results flagged for a closer look

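The response to JQ1 differed between control and DKO-C1 for 3 of the 10 genes by the edgeR test of the difference, given as DKO-C1 minus control on the log2 scale. It was -0.38 for PLXNA1 (adjusted p = 0.0013), -0.50 for SEMA3C (adjusted p = 0.018) and 1.73 for NRP1 (adjusted p = 0.0026). The PLXNA1 and SEMA3C differences were not called with spike-in factors.

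Sublines of a single knockout differed by the edgeR test while lying on opposite sides of control. C1 minus C2 in CDK8KO was 3.75 for SEMA3C, 2.11 for SEMA3A and -1.89 for NRP2. C1 minus C2 in CDK19KO was -3.61 for NRP1, 2.60 for NRP2 and 0.99 for PLXNA2. Without CDK19KO-C1 replicate 3 the PLXNA2 difference was 0.50 and did not pass (edgeR adjusted p = 0.31). The NRP1 difference with JQ1 was likewise not called without DKO-C1+JQ1 replicate 1, at 1.30. For NRP2 and PLXNA2 the subline values against control were not both called, so which side each subline lies on is less certain than the difference between them.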

How the results depend on the processing

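Counts of called genes among the 10 stayed within 1.5 times of the reported count under every alternative run except spike-in factors, which gave 5 for JQ1 in control, 1 for the JQ1 difference, 3 for the CDK8KO sublines and 6 for the CDK19KO sublines, and leaving out DKO-C1+JQ1 replicate 1, which gave 1 for the JQ1 difference (range 1 to 3 over left-out libraries).

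Spike-in factors reversed signs, as the median gene moved with them. In CDK8KO NRP2 became -0.50, SEMA3A -1.14, SEMA3F -0.075, PLXNA1 -1.10, PLXNA2 -0.66, PLXNB1 -0.44, PLXNB2 -0.76, PLXND1 -0.82, L1CAM -0.13, DPYSL4 -0.069 and DPYSL2 -0.29. In CDK19KO NRP2 became -0.91, SEMA3C -0.21, SEMA3F -0.79, PLXNA1 -1.21, PLXNB1 -1.31, PLXNB2 -1.29, PGF -0.44, ERBB2 -1.42, RND1 -0.92, CFL1 -1.33 and SLIT2 -0.20. In DKO NRP2 became -0.48, SEMA3C -0.58, PLXNA1 -0.60, PLXNB1 -0.40, PLXNB2 -0.81 and PLXND1 -0.52. For CDK8KO against CDK19KO NRP2 became 0.40 and PLXNA1 0.11. For DKO against the summed single knockouts NRP2 became 0.93, SEMA3A 0.31, SEMA3C 1.77, SEMA3F 0.92, PLXNA1 1.71, PLXNB1 1.35 and PLXNB2 1.24. With JQ1 PLXNA1 became -0.10 and PLXNB2 -0.10 in control, SEMA3C -0.12 and PLXNB2 -0.075 in DKO-C1, and PLXNB2 0.026 for the difference. Between CDK19KO sublines PLXNB2 became -0.015.

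A single subline reversed the genotype mean for NRP2 (-0.25) and SEMA3C (0.97) in CDK8KO-C1, SEMA3A (-0.97) in CDK8KO-C2, PLXNA2 (0.36) and SLIT2 (-0.46) in CDK19KO-C1, and NRP1 (1.003), NRP2 (-0.58) and TIAM1 (0.12) in CDK19KO-C2. Leaving out a library reversed only values that were not called. They ranged from -0.38 to 0.018 for PLXNA2 in CDK19KO, -0.52 to 0.073 for NRP2 with JQ1 in control, -0.17 to 0.095 for NRP2 in CDK8KO against CDK19KO, -0.35 to 0.053 for PLXNA2 and -0.044 to 0.0058 for PLXND1 with JQ1 in DKO-C1. Between CDK8KO sublines they ranged from -0.024 to 0.10 for PLXNB1 and -0.0034 to 0.049 for PLXND1, and between DKO sublines from -0.061 to 0.037 for PLXNA1 and -0.091 to 0.013 for PLXNB2.

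With the replicate block, fitted on 10 comparisons and with DKO-C1 alone for DKO, 8 genes were called in CDK8KO, 9 in CDK19KO, 7 in DKO and 5 with JQ1 in DKO-C1. No pairing by replicate number was detected: same-numbered libraries deviated with a mean correlation of 0.000293 over 63 pairs, and differently numbered ones with -0.000151 over 126. The labels do not say whether the numbers pair libraries. Outside spike-in factors, calls of NRP2 and then SEMA3C were lost most often, and low counts limit NRP2 and PLXNA2.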

Other observations

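Other guidance families, chosen like the members with earlier results known, gave 28 tested genes of 36. In CDK8KO 14 were called higher and 1 lower by edgeR, in CDK19KO 13 and 2, in DKO 15 and 6, and with JQ1 in control 13 and 6. Over all tested genes 40.5% were called in CDK8KO (19.5% higher, 21.0% lower) and 43.0% in CDK19KO (21.0% higher, 22.0% lower). In DKO it was 61.6% (29.5% higher, 32.1% lower), and with JQ1 in control 56.0% (27.0% higher, 29.1% lower). The median log2 fold changes were 0.34, 0.12, 0.27 and 0.15, beside -0.02 over all genes in each. With spike-in factors the splits were 0 higher and 22 lower, 1 and 26, 5 and 15, and 6 and 8. EFNB2, an ephrin ligand, fell in CDK8KO by 1.04 ± 0.05 (SE, adjusted p = 2.3e-19), and NTN1, which encodes netrin-1, rose there by 1.25 ± 0.08 (adjusted p = 1.4e-15). SLIT2, a ligand of ROBO receptors, was at 1.45 in CDK19KO, with -0.46 in C1 (not called) and 3.36 in C2. EPHB3, an ephrin receptor, rose with JQ1 in control by 1.85 ± 0.10 (adjusted p = 3.2e-18), and EPHA4, another, fell by 1.44 ± 0.17 (adjusted p = 4.2e-09). In DKO the ephrin gene EFNA5 rose by 3.26 ± 0.19 (adjusted p = 1.5e-17), from 0.552 to 5.44 CPM, and ROBO4, a relative of the SLIT receptors, by 3.24 ± 0.44 (adjusted p = 8.5e-08), from 0.0905 to 0.913 CPM. UNC5B, a netrin receptor, fell there by 0.99 ± 0.06 (adjusted p = 4.0e-16), and EPHA4 fell by 1.09. EPHA7, an ephrin receptor, was at 2.95 ± 0.82 in CDK19KO (adjusted p = 0.0043), from 0.0711 to 0.747 CPM, with 1.95 in C1 (not called) and 3.95 in C2. The remaining calls chosen for size were EFNA2 at 1.30 in CDK8KO and -1.74 with JQ1 in control, SLIT2 at 1.19 with JQ1 in control, and ROBO3 at -0.67 and RGMB at -0.25 in CDK19KO.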
